A study of Mus musculus with 15 samples.

Results

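SMADs are the intracellular messengers of the bone morphogenetic proteins (BMPs), and the 9 genes described here are the core of that route: the BMP receptor SMADs Smad1 and Smad5, the common SMAD Smad4, the inhibitory SMADs Smad6 and Smad7, and the Id genes Id1, Id2, Id3 and Id4. They were chosen by name among the 28876 genes of the deposited table, by a rule that uses no measured value but with earlier results of these data known, and all 9 were among the 18553 genes tested. Activated BMP receptors phosphorylate SMAD1 and SMAD5, which join SMAD4 and bind DNA in the nucleus. Smad6, Smad7 and the Id genes are well-known targets of this complex, and SMAD6 and SMAD7 in turn block the receptors or the complex, which makes them negative feedback genes. ID proteins hold a helix-loop-helix domain but no DNA-binding region, and they act by pairing with E proteins and keeping these from binding DNA with tissue-specific partners. BMP4 made beneath the ventral wall of the dorsal aorta is known for its part in the emergence of blood stem cells.

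The tissue was the aorta-gonad-mesonephros (AGM) region of C57BL/6 mouse embryos, the site of the first hematopoietic stem cells, with no engineered allele or treatment named in any group. At embryonic day E9.5 it was divided into the dorsal and ventral parts of the aorta with the tissue around them (E9 AoD and E9 AoV), and at E10.5 into the same parts (E10 AoD and E10 AoV) and the urogenital ridges (E10 UGR), which hold the mesonephros and the future gonad. Each of the 5 groups had 3 libraries, each a pool of dissected tissue from many embryos, made in 3 separate experiments. The unit is RPM, reads-per-million reads that fell in genes, and group means carry the SD over 3 libraries.

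Depth, worked out from the value of a single read, was 33.8 to 48.5 M reads (megareads) per library. The members stood on 253 to 15880 reads in a library, so that counting error alone was 0.794% to 6.28% of a value. The 10 endothelial markers summed to 724 to 779 RPM in E10 AoV, 683 to 747 in E10 AoD, 541 to 585 in E10 UGR, 685 to 736 in E9 AoV and 346 to 465 in E9 AoD, and none was at 0 in all libraries of a group. The 5 smooth muscle markers summed to 674 to 753 RPM in E10 AoV, 536 to 697 in E10 AoD, 50.2 to 76.5 in E10 UGR, 434 to 449 in E9 AoV and 65.3 to 127 in E9 AoD. Tissue beyond the vessel differed as well. The 8 neural tube markers were highest in E9 AoD (221 to 445 RPM), the 8 gut endoderm and liver markers in E9 AoV (479 to 696 RPM), the 8 somite markers in E10 AoD (580 to 727 RPM), and the 9 urogenital ridge markers in E10 UGR (725 to 803 RPM) and E10 AoV (670 to 699 RPM). The E9 AoD library of replicate 3 had the lowest endothelial and smooth muscle sums and the highest neural tube sum of its group. In such bulk tissue, fewer cells of a type and less RNA per cell cannot be told apart. The part of these differences in tissue content in the results that follow was not tested.

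**Figure D1:**
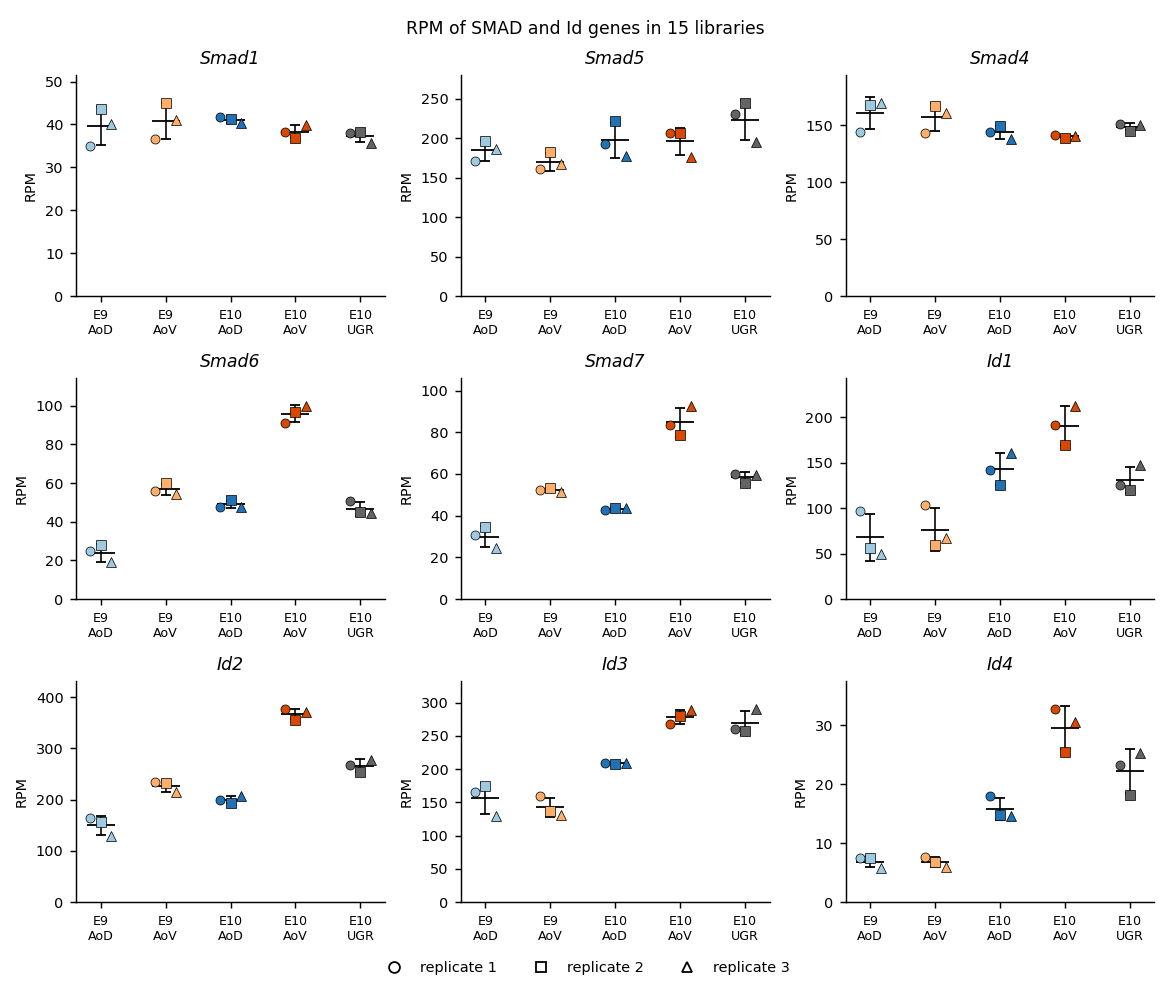
RPM of each of the 9 genes in the 15 libraries, with 1 panel per gene, the 5 groups on the horizontal axis and RPM from 0 on the vertical axis; symbols are replicates, and bars are mean ± SD (n = 3). Smad1, Smad5 and Smad4 stay within a narrow band, whereas Smad6, Smad7 and all 4 Id genes have their highest mean in E10 AoV.

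The BMP receptor SMADs Smad1 and Smad5 were at nearly the same RNA level in every part of the region. Smad1 (chromosome 8, 81862294 to 81923417, minus strand in NCBIM37; a protein-coding gene, like the other 8 members) stood at 34.9, 43.7 and 40.1 RPM in E9 AoD, at 36.6, 44.9 and 41 RPM in E9 AoV and at 41.8, 41.3 and 40.3 RPM in E10 AoD. It was at 38.2, 36.8 and 39.8 RPM in E10 AoV and at 37.9, 38.2 and 35.7 RPM in E10 UGR. The highest group mean of Smad1 was 1.10 times the lowest, and all neighbours in the order of the means had overlapping ranges. Smad5 (chromosome 13, 56804371 to 56843738, plus strand) was the higher of both per kb of exon, with 24.9 ± 1.76 against 6.81 ± 0.761 RPM per kb in E9 AoD. Its RPM values were 171, 197 and 186 RPM in E9 AoD, 161, 183 and 167 RPM in E9 AoV and 192, 222 and 178 RPM in E10 AoD, with 206, 206 and 176 RPM in E10 AoV and 230, 244 and 195 RPM in E10 UGR. Its highest mean, in E10 UGR, was 1.31 times its lowest, in E9 AoV, and again all neighbours overlapped. Neither gene passed an adjusted p (limma, Benjamini-Hochberg over all tested genes) of 0.05 in any of the 6 comparisons of groups, or an unadjusted p of 0.05, where their log2 differences lay between -0.18 and 0.20. With the replicate number as a block in the 6 libraries of E9.5, whose numbers paired the samples, Smad5 was lower in E9 AoV than in E9 AoD (-0.12, adjusted p = 0.0158, limma).

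Smad4, the partner shared by the BMP and TGF-β branches, was slightly lower at E10.5. It stood at 144, 168 and 169 RPM in E9 AoD and 143, 167 and 161 RPM in E9 AoV, against 144, 149 and 138 RPM in E10 AoD, 141, 139 and 140 RPM in E10 AoV and 151, 145 and 150 RPM in E10 UGR. The E10 AoV libraries lay within 2 RPM of each other and below all 3 E9 AoV libraries. From E9.5 to E10.5 Smad4 fell by 0.16 on the log2 scale in AoV (SE 0.0637, adjusted p = 0.0499908, limma) and by 0.16 in AoD (SE 0.0637, adjusted p = 0.0494, limma). Both values sit at the threshold, and each call was lost in 16 of the alternatives, with adjusted p up to 0.185 in AoV and 0.179 in AoD. Without E9 AoV replicate 2 the difference in AoV was -0.12, and without E9 AoD replicate 3 that in AoD was -0.12.

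The inhibitory SMADs were the members with the steepest dorsal-ventral difference. Smad6 (chromosome 9, 63800953 to 63869866, minus strand), whose product mainly restrains BMP signaling, stood at 25, 27.7 and 18.9 RPM in E9 AoD and at 56.1, 60 and 54.2 RPM in E9 AoV. At E10.5 it was at 47.8, 51.1 and 47.8 RPM in AoD, 91.1, 96.6 and 99.6 RPM in AoV and 50.9, 44.9 and 44.4 RPM in UGR. The order of its means was E10 AoV, E9 AoV, E10 AoD, E10 UGR and E9 AoD, a 4.01-fold span, and of the neighbours in that order E10 AoD and E10 UGR alone overlapped. Smad7, whose product blocks both BMP and TGF-β receptors, stood at 30.6, 34.7 and 24.5 RPM in E9 AoD, 52.3, 53.4 and 51.3 RPM in E9 AoV and 42.7, 43.8 and 43.6 RPM in E10 AoD, with 83.6, 78.7 and 92.4 RPM in E10 AoV and 60.2, 55.5 and 59.6 RPM in E10 UGR. No neighbours in the order of its means, E10 AoV, E10 UGR, E9 AoV, E10 AoD and E9 AoD, overlapped, and the span was 2.84-fold. The order differed from that of Smad6 in the place of E10 UGR, where Smad7 but not Smad6 stood above E9 AoV and E10 AoD in every library.

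The Id genes were all highest in E10 AoV, and Id2 passed the test between AoV and AoD at both stages. The bases just upstream of the starts of Id2, Id3, Id4 and Smad6 are shown. These genes were taken because all passed the test in several comparisons yet did not all order the groups in the same way. The sequences are the 250 bases before the RefSeq start in GRCm38.p6, a later build than that of the deposited table. They are read 5′ to 3′ on the strand of the gene. Promoters were at hand for 6 of the 9 members, and not for Id1, Smad4 or Smad7. Capitals mark matches on either strand to GGCGCC, a GC-rich element of BMP-responsive promoters, or to the SMAD-binding element CAGAC.
Id2, chr12:25096093-25096342, minus strand: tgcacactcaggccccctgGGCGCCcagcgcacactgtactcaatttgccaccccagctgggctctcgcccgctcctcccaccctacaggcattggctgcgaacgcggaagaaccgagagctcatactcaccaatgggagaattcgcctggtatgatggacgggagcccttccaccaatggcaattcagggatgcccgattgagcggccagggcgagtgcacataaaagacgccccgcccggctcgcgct
Id3, chr4:136143572-136143821, plus strand: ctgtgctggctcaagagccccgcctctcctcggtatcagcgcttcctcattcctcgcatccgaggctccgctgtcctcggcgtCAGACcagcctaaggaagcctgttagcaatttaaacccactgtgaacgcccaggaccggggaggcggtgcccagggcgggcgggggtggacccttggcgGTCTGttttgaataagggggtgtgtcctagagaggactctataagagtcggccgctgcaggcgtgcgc
Id4, chr13:48260866-48261115, plus strand: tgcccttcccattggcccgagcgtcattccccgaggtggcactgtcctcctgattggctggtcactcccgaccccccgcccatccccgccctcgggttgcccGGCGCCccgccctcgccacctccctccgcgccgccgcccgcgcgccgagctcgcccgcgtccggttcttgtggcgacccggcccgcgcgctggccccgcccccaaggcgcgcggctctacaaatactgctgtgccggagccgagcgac
Smad6, chr9:64022060-64022309, minus strand: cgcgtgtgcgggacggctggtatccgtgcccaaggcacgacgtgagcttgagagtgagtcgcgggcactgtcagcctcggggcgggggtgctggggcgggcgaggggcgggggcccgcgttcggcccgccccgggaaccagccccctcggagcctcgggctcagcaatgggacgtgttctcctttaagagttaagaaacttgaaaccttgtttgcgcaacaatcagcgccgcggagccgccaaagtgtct
Id2 and Id4 each held 1 GGCGCC, beginning 231 and 148 bases before the start, and no CAGAC. Id3 held 2 CAGAC matches, beginning 167 and 68 bases before the start, and no GGCGCC, and Smad6 held neither. Of the level members, whose sequences are not shown, Smad1 held neither. Smad5, listed with several starts, held 1 GGCGCC before a start and 1 CAGAC before a different start. Among 32851 mouse promoters of the same length 9.59% held GGCGCC and 42.2% held CAGAC. Matches to CAGAC are thus common and those to GGCGCC less so, and both are given as a description. These windows were rich in G and C, with 62.8% in Id2 and Id3, 66.8% in Smad6 and 75.6% in Id4, against a median of 52.4% over all promoters.

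Id1 (chromosome 2, 152561987 to 152563146, plus strand), the Id gene best known as a readout of BMP signaling, stood at 97.1, 56.3 and 50.1 RPM in E9 AoD and 103, 59.6 and 67 RPM in E9 AoV. At E10.5 it was at 142, 126 and 161 RPM in AoD, 191, 169 and 212 RPM in AoV and 125, 120 and 147 RPM in UGR. All 9 libraries of E10.5 lay above all 6 of E9.5, and the E10 AoV libraries lay above all others. Id1 also varied most among replicates at E9.5, with a coefficient of variation of 37.6% in E9 AoD and 30.3% in E9 AoV, where replicate 1 was the high library of both groups.

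Id2 (chromosome 12, 25778666 to 25780957, minus strand), known for its part in lymphoid and other lineage choices, stood at 164, 156 and 129 RPM in E9 AoD and 235, 232 and 214 RPM in E9 AoV. It was at 200, 193 and 207 RPM in E10 AoD, 376, 356 and 370 RPM in E10 AoV and 268, 253 and 278 RPM in E10 UGR. The order of its means was that of Smad7, with a 2.45-fold span and no overlap between neighbours. Of its 50-base exon windows 0.712% were shared with the pseudogene Gm6175.

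Id3 (chromosome 4, 135699412 to 135701670, plus strand), which often acts together with Id1 in vessels, stood at 165, 174 and 130 RPM in E9 AoD and 159, 137 and 131 RPM in E9 AoV. It was at 209, 208 and 209 RPM in E10 AoD, 268, 280 and 289 RPM in E10 AoV and 260, 258 and 290 RPM in E10 UGR. E10 AoV and E10 UGR overlapped, as did both E9.5 groups. Id4 (chromosome 13, 48356796 to 48359405, plus strand), best known from the nervous system and the germline, had the lowest level of the members per kb of exon at E9.5, with 4.14 ± 0.558 RPM per kb in E9 AoD and 4.10 ± 0.483 in E9 AoV. Its RPM values were 7.42, 7.41 and 5.81 RPM in E9 AoD and 7.63, 6.76 and 6.03 RPM in E9 AoV, with 18, 14.8 and 14.6 RPM in E10 AoD, 32.7, 25.5 and 30.6 RPM in E10 AoV and 23.3, 18.1 and 25.3 RPM in E10 UGR. Its span of 4.35-fold was the widest of the 9 members, and among the neighbours in its order only both E9.5 groups overlapped. Of the Id4 windows 4.82% also occurred, on either strand, in an exon of A330033J07Rik, and since the library kit does not keep strand, reads of both genes cannot be told apart there.

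Scaled by exon length, so that genes can be set side by side, the Id family amounted to 627 ± 28.2 RPM per kb of exon in E10 AoV, 486 ± 33.3 in E10 UGR, 407 ± 20.8 in E10 AoD, 328 ± 34.2 in E9 AoV and 268 ± 44.5 in E9 AoD. Id2 held the largest share of the length-scaled level in each group, from 38.7% ± 0.634 in E10 AoD to 54.7% ± 3.92 in E9 AoV. Id4 held the smallest, from 1.25% ± 0.0479 in E9 AoV to 2.84% ± 0.279 in E10 AoV. Among the 8 SMAD genes the length-scaled sum moved less, from 139 ± 9.27 RPM per kb in E9 AoD to 176 ± 0.204 in E10 AoV. Within it, Smad6 held 5.48% ± 1.02 in E9 AoD and 17.4% ± 0.80 in E10 AoV, whereas Smad4 held 31.0% ± 1.33 and 21.5% ± 0.133. These shares are descriptions over the members, with no test.

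**Figure D2:**
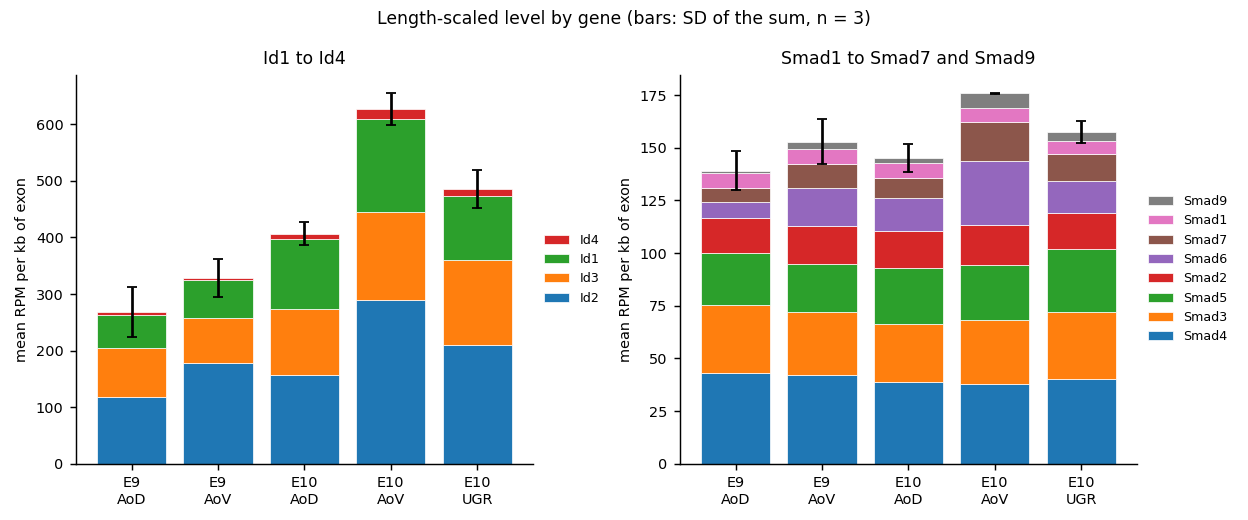
Mean RPM per kb of exon in the 5 groups for the Id genes (left) and the SMAD genes (right), stacked by gene on an axis that starts at 0; the bar on each column is the SD of the sum over 3 libraries. The Id sum is largest in E10 AoV (627 RPM per kb), with Id2 the largest part of it, and the Smad6 band is 30.5 RPM per kb in E10 AoV against 7.61 in E9 AoD.

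Ratios of inhibitory to receptor SMADs within a library depended on whether Smad1 or Smad9, a BMP receptor SMAD outside the 9 members, was taken. No ratio to Smad5 was computed. Smad5 had the highest level of the BMP receptor SMADs per kb of exon on both sides at E10.5. The RPM per kb of Smad5, Smad1 and Smad9 were 26.4, 6.58 and 6.77 in E10 AoV, and 26.6, 7.07 and 2.36 in E10 AoD. Between these sides Smad5 differed by -0.01 on the log2 scale and, like Smad1, did not pass the test, whereas Smad9 did. Smad1 itself was level, so that its ratios follow those of Smad6 and Smad7. Smad6 over Smad1, as a ratio of RPM, was 2.50 ± 0.12 in E10 AoV, 1.25 ± 0.0843 in E10 UGR, 1.19 ± 0.0469 in E10 AoD, 1.40 ± 0.118 in E9 AoV and 0.607 ± 0.125 in E9 AoD. Smad7 over Smad1 was 2.22 ± 0.0946, 1.57 ± 0.109, 1.05 ± 0.0306, 1.29 ± 0.124 and 0.761 ± 0.136 in the same order. Against Smad9, a further BMP receptor SMAD, the direction between the sides at E10.5 was the opposite, with Smad6 over Smad9 at 2.64 ± 0.133 in E10 AoV, 2.07 ± 0.27 in E10 UGR, 3.86 ± 0.137 in E10 AoD, 3.30 ± 0.769 in E9 AoV and 3.59 ± 0.831 in E9 AoD. Smad7 over Smad9 was likewise 2.34 ± 0.256 in E10 AoV and 3.43 ± 0.0654 in E10 AoD. Between the inhibitory SMADs, Smad6 over Smad7 lay between 0.771 and 0.817 in E9 AoD and between 0.745 and 0.846 in E10 UGR, below every library of E9 AoV (1.06 to 1.12), E10 AoD (1.10 to 1.17) and E10 AoV (1.08 to 1.23). These ratios are not scaled for length and are compared between groups only.

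E10 AoV was set against E9 AoV to see which genes change as the ventral tissue gains its capacity to support stem cell development. All 4 Id genes and both inhibitory SMADs rose. Id4 rose most, from 6.81 ± 0.801 to 29.6 ± 3.70 RPM, a log2 difference on the log2(RPM + 0.1) scale of 2.10 (SE 0.142, adjusted p = 2.44e-08, limma). Id1 rose from 76.5 ± 23.2 to 190.7 ± 21.5 RPM, by 1.35 (SE 0.220, adjusted p = 0.000153, limma). Id3 rose by 0.97 (SE 0.0924), Id2 by 0.70 (SE 0.0722), Smad6 by 0.75 (SE 0.104) and Smad7 by 0.69 (SE 0.0936), with adjusted p of at most 3.36e-05 (limma). Thus 7 of 9 members passed the adjusted p, where 46% of all tested genes passed, with 6 of them higher (23.6% of genes) and Smad4 lower (22.4%). Smad4 sat at the threshold (adjusted p = 0.0499908, limma), and its call was lost in 16 alternatives. Of the members that passed, 2, Id1 and Id4, also changed at least 2-fold, where 11% did. Ranges did not overlap for 7 members and for 55% of tested genes. The median log2 difference was 0.70 over the members and -0.00163 over all tested genes. Markers of other cell types moved in the same comparison. All 6 macrophage markers were higher by at least 2-fold (sums of 7.29 to 9.59 RPM in E9 AoV and 48.5 to 60.6 RPM in E10 AoV), as were 4 of 6 hematopoietic markers (21.9 to 29.2 and 43.4 to 53.8 RPM), and 7 of 8 gut endoderm and liver markers were lower (479 to 696 and 15.9 RPM). Of 9 urogenital ridge markers 6 were higher, 5 of them by at least 2-fold (sums of 169 to 179 RPM in E9 AoV and 670 to 699 RPM in E10 AoV). By at least 2-fold, 5 of 8 neural tube markers were lower, and of 5 notochord markers 4 were lower and 1 higher. Apart from Noto of the notochord list, at 0 in E10 AoV, no marker of these lists was at 0 in all libraries of a group. The part of these markers in the rise of the members was not tested.

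E10 AoD was set against E9 AoD to see the same for the dorsal side, and the same 7 members passed it. Smad4 was again the one that was lower, and again at the threshold (adjusted p = 0.0494, limma). Smad6 rose from 23.9 ± 4.51 to 48.9 ± 1.91 RPM, by 1.05 (SE 0.104, adjusted p = 8.09e-07, limma), Id4 by 1.19 (SE 0.142, adjusted p = 4.98e-06) and Id1 by 1.13 (SE 0.220, adjusted p = 0.000477). Smad7 rose by 0.55 (SE 0.0936), Id3 by 0.43 (SE 0.0924) and Id2 by 0.42 (SE 0.0722). Among all tested genes 57.8% passed in either direction, so that 7 of 9 members is not far above that background. Of the 9 members 6 were higher, against 30% of genes, and 1 was lower, against 27.9%. At 2-fold stood 3 members, against 12.6% of genes. Ranges did not overlap for 6 members and 60.7% of genes. Endothelial and smooth muscle sums were higher in all E10 AoD libraries than in any of E9 AoD, and neural tube sums lower, and all 6 macrophage markers were higher by at least 2-fold (sums of 2.07 to 4.22 RPM in E9 AoD and 63.3 to 75.7 RPM in E10 AoD). Without E9 AoD replicate 3, which had the lowest vessel sums, 1 member reached 2-fold, Id4, since Smad6 then rose by 0.89 and Id1 by 0.94, both still past the adjusted p.

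**Figure D3:**
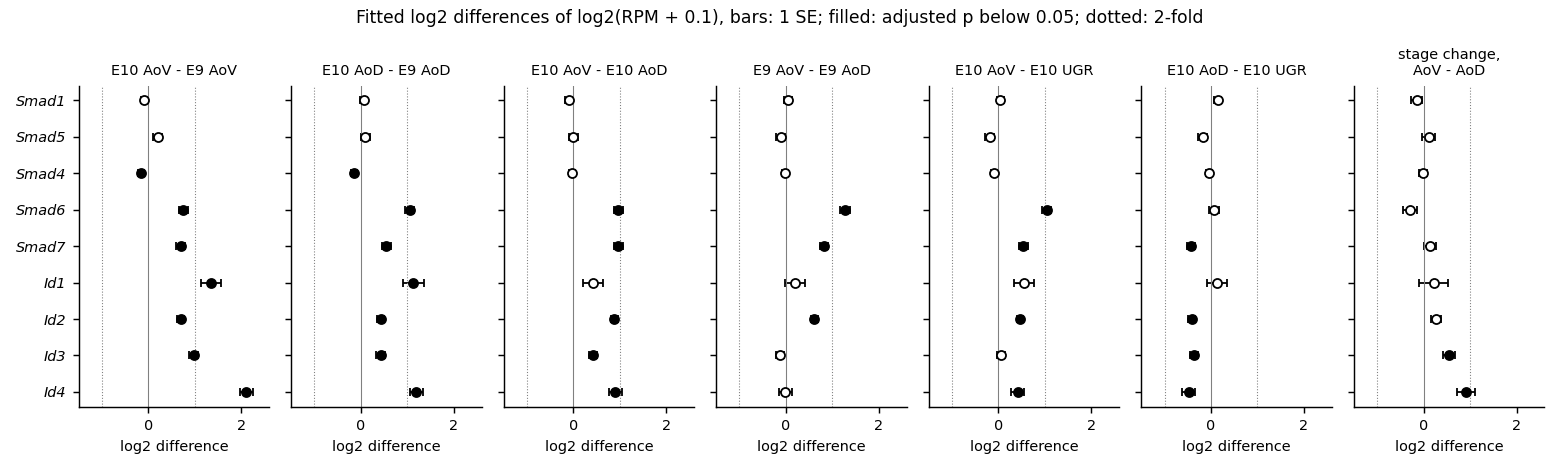
Fitted log2 differences of the 9 members (rows) in the 6 comparisons and in the difference between the stage changes (columns), on the log2(RPM + 0.1) scale, where points to the right are higher in the group named first; bars are 1 SE, filled points have an adjusted p below 0.05 and dotted lines mark 2-fold. Smad6, Smad7 and Id2 lie to the right in each of the 4 comparisons between stages and between AoV and AoD, whereas Smad1, Smad5 and Smad4 lie between -0.18 and 0.20 throughout.

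The E10 AoV and E10 AoD groups were compared to ask what marks the ventral side when it supports stem cells. Smad6 was 1.96 times as high in E10 AoV (95.8 ± 4.31 against 48.9 ± 1.91 RPM, log2 difference 0.97, SE 0.104, adjusted p = 3.16e-06, limma) and Smad7 was 1.95 times as high (0.96, SE 0.0936, adjusted p = 1.09e-06). Id4 was higher by 0.90 (SE 0.142, adjusted p = 0.000135), Id2 by 0.88 (SE 0.0722, adjusted p = 1.95e-07) and Id3 by 0.42 (SE 0.0924, adjusted p = 0.00235). In this comparison 5 of 9 members passed, all higher in E10 AoV, against 35.5% of tested genes in either direction and 20.2% in this one, and 0 reached 2-fold at any p, against 10.1%. Smad6 alone reached 2-fold without E10 AoD replicate 2 or without E10 AoV replicate 1, and Smad7 and Id4 did without E10 AoV replicate 2.

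Id1 was higher in every E10 AoV library than in any E10 AoD library, by 0.42 on the log2 scale, but its SE of 0.220 gave an adjusted p of 0.165 (limma). In a fit of those 6 libraries alone, which leaves out the wide spread of Id1 at E9.5, its adjusted p was 0.0120. That fit had no block, and with the replicate number as a block over all 15 libraries the adjusted p was 0.0936 (limma). By replicate number, Id1 stood at 191 and 142, 169 and 126, and 212 and 161 RPM in E10 AoV and E10 AoD. A fit of those 6 libraries with a block was not run. Ranges did not overlap for 7 members, against 49.5% of tested genes, and the remaining member among them was Smad1, lower in E10 AoV by 0.10 (log2 difference -0.10, adjusted p = 0.340, limma). The endothelial sums of E10 AoV and E10 AoD overlapped, while the urogenital ridge sum was 670 to 699 RPM in E10 AoV and 61.7 to 87.3 RPM in E10 AoD. All 8 somite and all 5 neural crest markers passed as lower in E10 AoV, as did 7 of 8 neural tube markers. Of 5 notochord markers 3 were lower and 1 higher, and of 6 germ cell markers tested 5 were higher. The part of these markers in the values of the members was not tested.

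**Figure D4:**
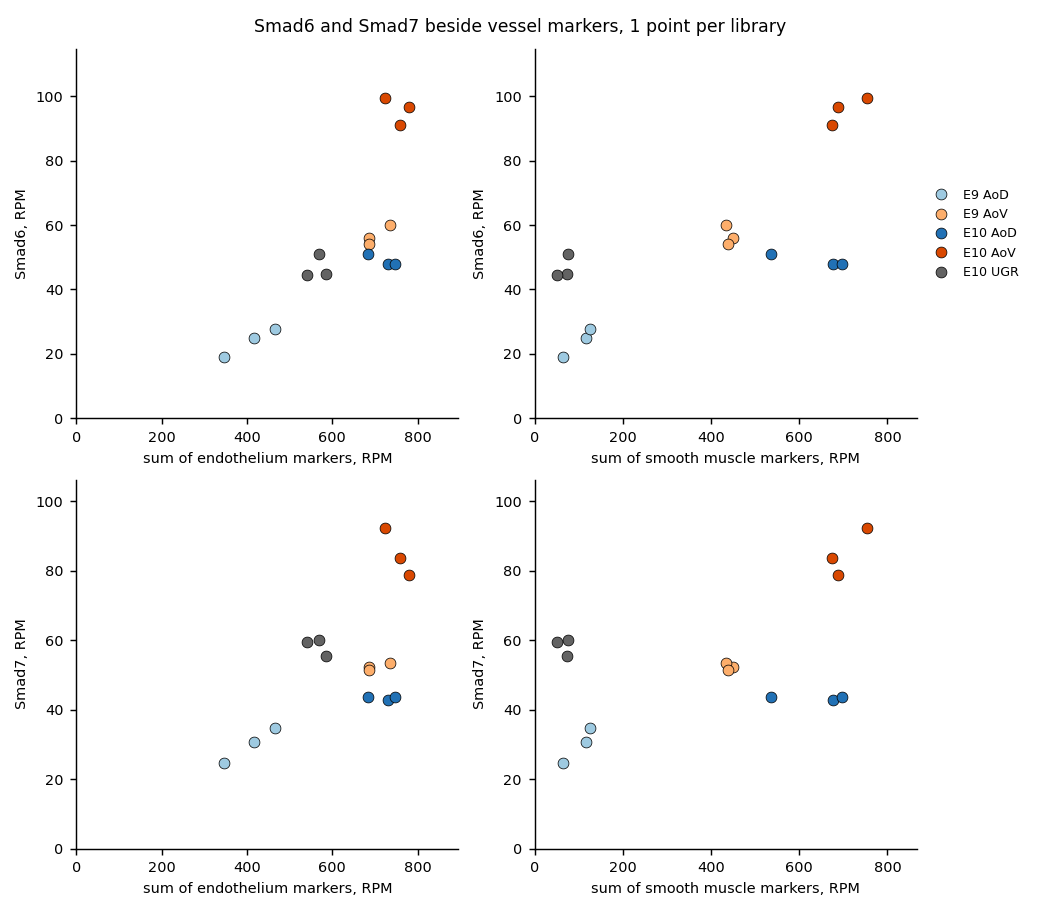
Smad6 (top) and Smad7 (bottom) in RPM against the summed RPM of 10 endothelial markers (left) and 5 smooth muscle markers (right), 1 point per library, colored by group, all axes from 0. E9 AoD lies lowest on both axes of the endothelial panels. E10 AoV and E10 AoD have overlapping endothelial sums, and their Smad6 levels are 91.1 to 99.6 and 47.8 to 51.1 RPM.

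At E9.5, a stage of low supportive capacity, Smad6, Smad7 and Id2 already stood higher on the ventral side. Smad6 was at 56.8 ± 2.96 RPM ventrally and 23.9 ± 4.51 RPM dorsally, a log2 difference of 1.26 (SE 0.104, adjusted p = 1.7e-07, limma). Smad7 was higher by 0.82 (SE 0.0936, adjusted p = 4.73e-06) and Id2 by 0.61 (SE 0.0722, adjusted p = 7.15e-06). The other Id genes did not pass, with differences of 0.20 for Id1 (SE 0.220), -0.13 for Id3 (SE 0.0924) and -0.01 for Id4 (SE 0.142). Hence 3 of 9 members passed, against 47.7% of tested genes, and all 3 were higher, against 27.5%, 1 of them, Smad6, reached 2-fold, against 11.8%, and ranges did not overlap for 3 members and 51.3% of genes. Of the genes that passed by 2-fold, 70.6% were higher in E9 AoV, and 59.4% with quantile normalization. Endothelial and smooth muscle sums were also higher in every E9 AoV library than in any of E9 AoD.

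Replicate numbers paired the E9.5 groups, since libraries of the same number deviated together. With the replicate number as a block in the 6 libraries of E9.5, 5 members passed, as Id1 (0.20, adjusted p = 0.0477, limma) and Smad5 (-0.12, adjusted p = 0.0158, limma) joined Smad6, Smad7 and Id2. Id1 was higher in E9 AoV than in E9 AoD in each of the 3 numbered pairs, and Smad5 was lower in each. With no block, the Id1 difference was 0.48 without E9 AoD replicate 1 (adjusted p = 0.0460, limma). Without E9 AoV replicate 1 it was -0.0394 (adjusted p = 0.894, limma). Replicate 1 was the high Id1 library of both groups, and each of these fits drops it from a single side. Without E9 AoD replicate 3 and with no block, the Id3 difference was -0.26 (adjusted p = 0.0121, limma).

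Against the urogenital ridges, the ventral aorta differed most in Smad6. Smad6 was 2.05 times as high in E10 AoV as in E10 UGR (95.8 ± 4.31 against 46.7 ± 3.62 RPM, log2 difference 1.04, SE 0.104, adjusted p = 2.78e-06, limma). Smad7 was higher by 0.54 (SE 0.0936, adjusted p = 0.000472), Id2 by 0.46 (SE 0.0722, adjusted p = 0.000171) and Id4 by 0.42 (SE 0.142, adjusted p = 0.0381). Id3 differed by 0.05 (SE 0.0924) and overlapped, and Id1 was higher in every E10 AoV library, by 0.54 (SE 0.220), with an adjusted p of 0.0785. The 4 members that passed stood against 29.1% of tested genes, or 12.5% in the same direction, and Smad6, the 1 member at 2-fold, against 7.57%, while ranges did not overlap for 6 members and 48.6% of genes. Without E10 UGR replicate 3 the Smad6 difference was 0.999837, just under 2-fold, so that 0 members reached it, and the Id4 call was lost in 5 alternatives, with adjusted p up to 0.179.

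The dorsal tissue stood below the urogenital ridges in 4 members. Smad7 was lower in E10 AoD than in E10 UGR by 0.43 (log2 difference -0.43, SE 0.0936, adjusted p = 0.00188, limma), Id2 likewise (-0.41, SE 0.0722, adjusted p = 0.000312), Id3 (-0.37, SE 0.0924, adjusted p = 0.00528) and Id4 (-0.48, SE 0.142, adjusted p = 0.0135). Smad6 differed by 0.07 (SE 0.104) and Id1 by 0.13 (SE 0.220), and neither passed. The share of tested genes that passed was 39.2%, with 24.8% lower in E10 AoD, and 0 members, at any p, against 11.3% of genes reached 2-fold. The Id4 call was lost in 3 alternatives, with adjusted p up to 0.0707. Ranges did not overlap for 5 members and 50.9% of genes. Smooth muscle sums were at least 536 RPM in E10 AoD and at most 76.5 RPM in E10 UGR. The comparisons with E10 UGR share its libraries with each other.

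Whether the stage change differed between the sides of the aorta was then tested by an interaction term. Id4 rose more in AoV than in AoD, by 0.91 on the log2 scale (SE 0.200, adjusted p = 0.00309, limma), and Id3 by 0.55 (SE 0.131, adjusted p = 0.00556). For Id4 the change was 4.30-fold in AoV and 2.28-fold in AoD, and for Id3 it was 1.97-fold and 1.34-fold. Id2 (0.27, SE 0.102, adjusted p = 0.0629), Id1 (0.22, SE 0.311), Smad7 (0.15, SE 0.132) and Smad6 (-0.30, SE 0.147, adjusted p = 0.161) did not pass. The 2 members that passed stood against 28.1% of tested genes, 11.8% in that direction, and 0, at any p, against 11% at 2-fold, where Id4 was past 2-fold with quantile normalization and without E9 AoD replicate 3, E10 AoD replicate 1 or E10 AoV replicate 2. Without E9 AoD replicate 3, 4 members passed, Id2 (0.37, adjusted p = 0.0017) and Smad7 (0.28, adjusted p = 0.0370) besides Id3 and Id4. Without E9 AoD replicate 2 the Smad6 value was -0.41 (adjusted p = 0.0300). All 9 urogenital ridge markers passed the same test in the direction of Id3 and Id4, 8 of them by 2-fold and with a median of 2.23 (sums of 169 to 179 RPM in E9 AoV, 670 to 699 in E10 AoV, 59 to 146 in E9 AoD and 61.7 to 87.3 in E10 AoD). Of 6 germ cell markers tested 3 passed in that direction and 2 in the other, with a median of 1.45, and 9 of 10 endothelial and all 5 smooth muscle markers passed in the other direction. The part of these markers in the values of Id3 and Id4 was not tested.

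Genes with the pattern most like a member were found by the root mean square (RMS) difference of centred log2 values over the 15 libraries, among the 12371 genes with a mean of at least 5 RPM, for the 3 members that passed 2-fold. The nearest to Smad6 were Ccdc80 (RMS 0.121), Il2rg (0.130) and Unc5b (0.147), against an RMS of 0.657 of Smad6 about its own mean, and Smad7 ranked 26 and Id2 75. The nearest to Id1 were Hist1h1c (0.224), Ppp1r15a (0.250) and Hist1h2bc (0.254), against 0.641, with Id3 at rank 67. The nearest to Id4 were Lbh (0.267), 6430527G18Rik (0.289) and Dusp1 (0.312), against 0.875, with Id1 at rank 31. Histone genes such as Hist1h1c and Hist1h2bc have near-identical copies, between which the authors' counting divides reads.

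Of the other 3 SMADs, Smad9, another BMP receptor SMAD, passed the test in all 6 comparisons. It stood at 7.2, 9.83 and 4.23 RPM in E9 AoD, 13.4, 20.9 and 19.1 RPM in E9 AoV and 12.2, 12.9 and 12.9 RPM in E10 AoD, with 35.4, 37.9 and 35.7 RPM in E10 AoV and 22.4, 20.7 and 25.2 RPM in E10 UGR. It was higher in E10 AoV than in E10 AoD by 1.51 and than in E9 AoV by 1.05 (adjusted p = 6.66e-05 and 0.00129, limma), and higher in E9 AoV than in E9 AoD by 1.37. Smad2, of the TGF-β and activin branch, passed neither an adjusted nor an unadjusted p of 0.05 in any comparison, with differences from 0.03 to 0.11, and Smad3 of the same branch was lower in E10 AoD than in E9 AoD by 0.21 (log2 difference -0.21, adjusted p = 0.00652, limma) and than in E10 UGR by 0.20.

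The 18 SMAD regulators, mostly ligases and corepressors, were tested in full. From E9 AoV to E10 AoV 8 rose and 2 fell, and 4 of the rises were at least 2-fold, with a median difference of 0.10 over the list. These 10 of 18 stood against 46% of all tested genes. Zeb2, a SMAD-binding repressor, rose from 57.6 ± 6.40 to 183 ± 10.8 RPM (1.67, adjusted p = 1.4e-08, limma), Pmepa1, which keeps receptor SMADs from the receptor, by 1.24 and Tob1, a BMP-SMAD antagonist in bone, by 1.11. In the dorsal tissue 6 rose and 1 fell, led by Pmepa1 (1.83) and Skil (1.07), and 7 of 18 stood against 57.8%. Between E10 AoV and E10 AoD 5 were higher and 2 lower, none by 2-fold, and 7 of 18 stood against 35.5%.

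Of the 15 other genes listed as BMP-SMAD targets, which include Smad9, 7 rose and 6 fell from E9 AoV to E10 AoV, with a median difference of 0.33, and 13 of 15 stood against 46% of all tested genes. The homeobox genes Msx1 and Msx2 fell by 2.38 and 2.16 on the log2 scale, Msx1 from 49.7 ± 5.16 to 9.48 ± 1.06 RPM, and Dlx3 fell by 3.89 from 3.48 ± 0.123 RPM. Between the sides at E10.5, 7 were higher and 2 lower in E10 AoV, with Msx1 (1.59), Bambi, a decoy receptor (1.58), and Smad9 (1.51) the largest, and 9 of 15 stood against 35.5%. At E9.5, 10 were higher and 2 lower in AoV, led by Tbx20 (3.93), Msx2 (1.89) and Bambi (1.63), with 12 of 15 against 47.7% of all tested genes, and the median difference was 0.79 against 0.02. Dorsally 7 rose and 6 fell from E9.5 to E10.5, 13 of 15 against 57.8%.

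The E proteins Tcf3, Tcf4 and Tcf12, the partners that ID proteins hold, were lower on the ventral side at both stages. Of the Id genes, Id2, Id3 and Id4 passed as higher ventrally at E10.5. At E9.5, with no block, only Id2 did, with Id1 at 0.20, Id3 at -0.13 and Id4 at -0.01. Tcf3 stood at 313 ± 5.86 RPM ventrally and 356 ± 12.7 RPM dorsally at E10.5, a log2 difference of -0.19 (adjusted p = 0.00212, limma), Tcf4 at -0.35 and Tcf12 at -0.36. All 3 were also lower in E9 AoV than in E9 AoD, at -0.16, -0.37 and -0.52, where 47.7% of all tested genes passed at E9.5 and 35.5% at E10.5. With stage 0 of 3 passed on either side by the adjusted or the unadjusted p, with differences from -0.02 to 0.14. The tissue-specific helix-loop-helix factors, 25 of 26 of them tested, were mostly lower ventrally, 14 lower and 3 higher in E10 AoV than in E10 AoD with a median difference of -1.20 and 17 of 25 against 35.5% of all tested genes, where the neural factors Nhlh2 (-3.88) and Neurod4 (-4.32) were lower and Tcf21 of visceral mesenchyme (4.34) was higher.

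Upstream of the SMADs, 12 of 13 BMP ligands and all 8 receptors were tested. From E9 AoV to E10 AoV 4 ligands rose and 6 fell, and 3 receptors rose and 2 fell, so that 10 of 12 ligands and 5 of 8 receptors stood against 46% of all tested genes. Between E10 AoV and E10 AoD 5 ligands were higher and 3 lower, with Gdf6 (4.32), Gdf2 (2.99) and Bmp3 (-2.14) the largest, and 1 receptor was higher and 2 lower, with Bmpr1b at -1.94, so that 8 of 12 ligands and 3 of 8 receptors stood against 35.5%. The median difference of the ligands was 0.17 there and 1.05 between E9 AoV and E9 AoD. At E9.5 all 12 tested ligands passed, 9 higher and 3 lower in E9 AoV, and of 8 receptors 3 were higher and 1 lower, against 47.7% of all tested genes.

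**Figure D5:**
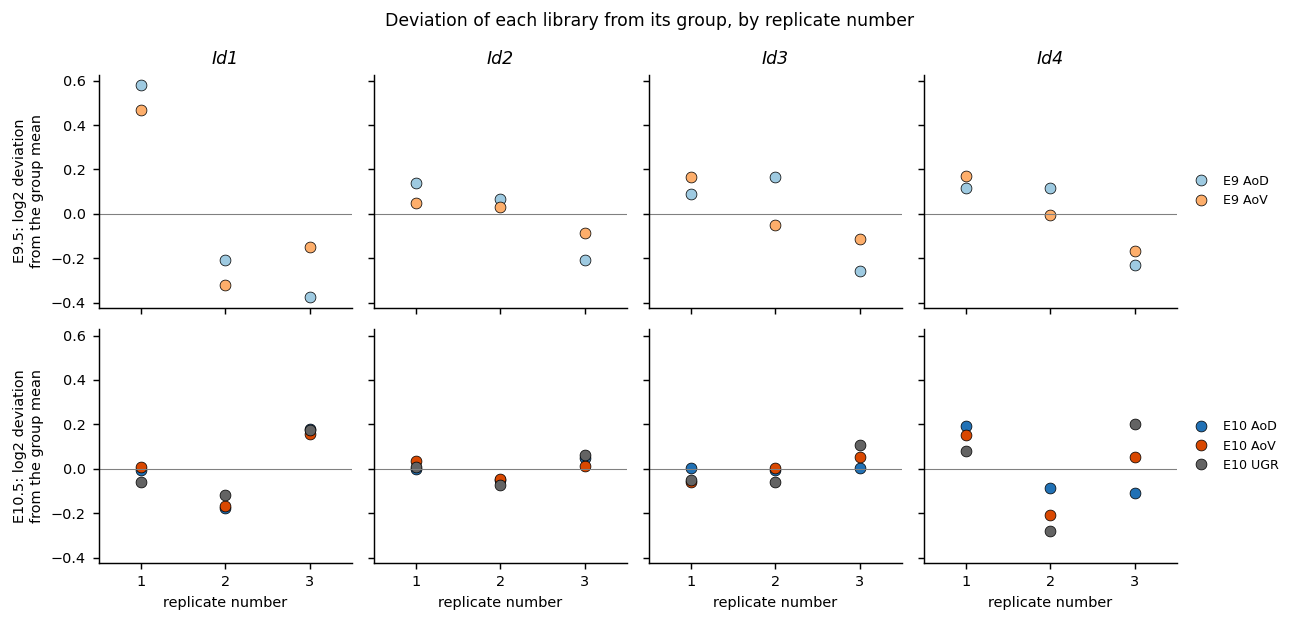
Log2 deviation of each library from its group mean for Id1, Id2, Id3 and Id4 (columns) at E9.5 (top) and E10.5 (bottom), against replicate number, colored by group. For Id1, replicate 1 is the highest library of both E9.5 groups. At E10.5 replicate 3 is the highest and replicate 2 the lowest in all 3 groups. For 6.89% of tested genes some replicate, whichever its number, is the highest and another the lowest in all 3 groups.

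Within groups, the deviations of Id1 went with the replicate number. At E10.5 replicate 3 was the highest and replicate 2 the lowest in AoD, AoV and UGR alike, with replicate 2 also the lowest for Id2 in all 3 groups. Some replicate was the highest in all 3 groups for 19.9% of tested genes. For 6.89% some replicate was the highest and another the lowest in all 3 groups, whichever their numbers. The share of genes with the same order as Id1 was not computed. At E9.5 replicate 1 was the highest for Id1, Id2 and Id4 in both groups, and replicate 3 was the lowest for Id2, Id3, Id4, Smad6 and Smad7, where 54.0% of genes shared their highest replicate and 33.3% both.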

How the data were processed

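Total RNA of pooled tissue was made into TruSeq libraries, and 50-base single-end reads were aligned by the authors to NCBI37/mm9 with TopHat and Bowtie 0.12.3, as the study's methods and the submitters' processing notes say. The authors counted reads over Ensembl mouse genes in GeneProf, dividing reads that match several genes in proportion to unique reads, and deposited RPM rounded to 3 significant digits, not scaled for length. The 12 deposited columns of the authors' DESeq comparisons (log2 fold changes and adjusted p-values) were not used. RPM of 1 read gave the depth. Whole reads were not recovered, since 75.9% to 78.1% of low values were whole within 2%, so no count test was run.

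Genes that reached 0.5 RPM in at least 1 of 15 libraries were modelled as log2(RPM + 0.1) in limma 3.58.1 (R 4.3.3) by group means, empirical Bayes with trend and Benjamini-Hochberg adjustment over 18553 genes. Calls needed an adjusted p below 0.05, and separately 2-fold. Fold changes on this scale understate those of low genes. P-values measure the spread between pools. Positions, exon lengths and 50-base windows came from a GENCODE annotation of NCBIM37 that held 95.3% of the deposited IDs, and promoters from RefSeq. Alternatives changed the pseudocount, filter, scaling, weights, block or libraries. Same-numbered libraries of E9 AoD and E9 AoV had deviations correlated at 0.19 to 0.452 over genes, all above 0.1, and no other groups did in all 3 pairs. At E10.5 these correlations were positive as well, at 0.0416 to 0.205 for AoD with AoV and 0.0441 to 0.339 for AoD with UGR. For AoV with UGR they were 0.0889 to 0.168. A block for the libraries of E10.5 alone was not fitted, so a weaker pairing there was left out of the tests. All 9 members were named. Other list genes were named when among the 3 largest of their list past both thresholds, or if SMADs or E proteins. Members and lists were chosen with earlier results of these data known.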

Additional observations from a re-analysis of the deposited data

Results flagged for a closer look

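The stage change differed between the sides of the aorta for 2 members, by the interaction term of the limma fit over all tested genes. For Id4 the stage change in AoV exceeded that in AoD by 0.91 on the log2 scale (SE 0.200, adjusted p = 0.00309), and all 3 libraries of E10 AoV (25.5 to 32.7 RPM) lay above those of E10 AoD (14.6 to 18 RPM) while both E9.5 groups overlapped. For Id3 it exceeded by 0.55 (SE 0.131, adjusted p = 0.00556), with E10 AoV at 268 to 289 RPM, E10 AoD at 208 to 209 RPM and overlapping E9.5 groups. Both passed in every fit that left out 1 library. All 9 urogenital ridge markers passed the same term in the same direction (median 2.23), and their part in these values was not tested.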

How the results depend on the processing

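Over 63 results of single genes, 1521 alternative values were computed, of which 1441 kept direction and side of the threshold, 40 no longer passed, 20 newly passed and 20 changed sign, none of the last from a result that had passed. The sign changes were Smad1 in E9 AoV against E9 AoD with quantile normalization (-0.000765), and Smad4 with median-of-ratios scaling in E10 AoD against E10 UGR (0.00923) and in the interaction (0.00798). When each library was left out in turn, values that changed sign ranged from -0.0254 to 0.136 for Smad1 in E10 AoD against E9 AoD, and in E9 AoV against E9 AoD from -0.0408 to 0.123 for Smad1, -0.105 to 0.0362 for Smad4, -0.0394 to 0.485 for Id1 and -0.128 to 0.0701 for Id4. The ranges were -0.0788 to 0.0804 for Smad5 in E10 AoV against E10 AoD, and in the interaction -0.0728 to 0.0684 for Smad4 and -0.0691 to 0.455 for Id1. Counts of members past adjusted p 0.05 and 2-fold ranged, without 1 library, from 1 to 3 in E10 AoD against E9 AoD, 0 to 2 in E10 AoV against E10 AoD, 0 to 1 in E10 AoV against E10 UGR and 0 to 1 in the interaction, where quantile normalization gave 1 as well. Counts past the adjusted p alone ranged, without 1 library, from 2 to 4 in the interaction. They ranged from 6 to 7 in E10 AoV against E9 AoV and in E10 AoD against E9 AoD. The replicate block in the 6 libraries of E9.5, chosen after seeing the data, took E9 AoV against E9 AoD from 3 to 5 members. The cause of these changes was not tested. With the replicate block over all 15 libraries, where the numbers do not pair the samples across stages, Smad5 newly passed in E10 AoV against E9 AoV (0.20, adjusted p = 0.0183), E10 AoV against E10 UGR (-0.18, adjusted p = 0.0404) and E10 AoD against E10 UGR (-0.18, adjusted p = 0.0391), and Id1 in E10 AoV against E10 UGR (0.54, adjusted p = 0.0377). The lowest member stood on 253 reads, a counting error of 6.28%, and each group had 3 pools.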

Other observations

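Id1 had the largest SE of the members (0.220 on the log2 scale), and genes that moved with it within groups were looked for after this was seen. Over the 15 libraries, with each gene set to its group means, the smallest RMS differences from Id1 among log2 values were those of Socs3 (0.0742), Dusp1 (0.0824), Rhob (0.0943), Klf6 (0.110), Hist1h1c (0.116) and Jund (0.122), against 0.262 for Id1 about its own group means. Socs3, a feedback inhibitor of cytokine signaling, stood at 23.9, 16.7 and 15.6 RPM in E9 AoD and 52.8, 27.3 and 32.9 RPM in E9 AoV, so that replicate 1 was the highest in both groups, as for Id1. Klf6, a zinc-finger factor induced soon after many stimuli, stood at 472, 372 and 527 RPM in E10 AoD, 516, 369 and 525 RPM in E10 AoV and 271, 211 and 286 RPM in E10 UGR, with replicate 3 the highest and replicate 2 the lowest, again as for Id1. Dusp1, a phosphatase of the immediate early response, was also among the 3 genes nearest to Id4 over all libraries. These genes were chosen for their likeness to Id1, and what libraries of the same number share was not tested.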
